A study of Mus musculus with 6 samples.

Results

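Krüppel-like factors (KLFs) are transcription factors that bind GC-rich and CACCC sequences through zinc fingers at their carboxyl end. Klf1, the founding member, drives red cell genes; the present account covers 10 relatives, Klf2, Klf3, Klf4, Klf5, Klf6, Klf7, Klf9, Klf10, Klf11 and Klf13, and leaves Klf1 out. The members were taken as all non-control probes whose gene name on the array is one of these, which gave 12 probes among the 55681 on the array, and 10 of its 34797 gene names. Klf13 had 3 probes and each of the other genes had 1. The cells were G1E-ER-GATA-1, immature mouse red-lineage cells with no functional Gata1 gene of their own, in which a fusion of GATA-1 to an estrogen receptor domain becomes active when estradiol is added. One group received Foxo3 siRNA (3 arrays) and the control group nontargeting siRNA (3 arrays), electroporated at 0 h and a second time 24 h later. Both groups were also given estradiol from 24 h until RNA was taken at 48 h, and both grew with serum, erythropoietin, Kit ligand and puromycin. All arrays come from 1 cell line, and nothing in the labels says that replicates were separate cultures, so p-values measure the spread between these samples, which may be technical.

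As background, KLFs share a DNA-binding end and differ in what they recruit: KLF3 binds the corepressor CtBP, while KLF9, KLF10, KLF11 and KLF13 can bind the corepressor SIN3A. In mouse erythroid cells Klf1 activates the Klf3 gene, and KLF3 then competes for CACCC sites. FoxO factors are known to raise Klf2 in lymphocytes.

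Values are scaled log2 signals, that is, the log2 of the background-subtracted spot intensity minus the 75th percentile of its array. Called means an adjusted p under 0.05 in limma's moderated test over 27016 kept probes, meaning those that stood well above background on every array of the Foxo3 siRNA group, of the nontargeting group, or of both. The RefSeq probe of Foxo3 itself read −0.47, −1.29 and −1.89 in Foxo3 siRNA cells, against 1.20, 1.28 and 1.12 in nontargeting cells (log2 fold change −2.42, limma adjusted p = 0.00519). In the Foxo3 siRNA group 1 of the 3 readings did not clear the background, and the probe was kept through the nontargeting group, so the size is approximate. Its other probe gave 0.26 (adjusted p = 0.243). Foxo3 siRNA replicate 3 stood apart, with 20343 spots well above background, against 30619 to 37532 on the other 5 arrays. Replicates 2 and 3 of Foxo3 siRNA lay in slide row 2, whereas replicate 1 and all nontargeting arrays lay in row 1. Of 13 erythroblast markers on the array, 12 were well above background on all 6 arrays, Gata1 and Klf1 among them. The summed linear signal of the list was 4559 to 5956 times the 75th percentile with Foxo3 siRNA and 6444 to 7009 times with nontargeting siRNA. Of the markers of other cells, 6 of 12 macrophage and granulocyte, 3 of 5 mast cell, 3 of 6 lymphocyte and 3 of 5 fibroblast genes were below background throughout. Of 10 megakaryocyte markers 8 were tested, and 4 rose (Itga2b, Gp1ba, Gp6 and Treml1), where 12.3% of all kept probes were called higher. These 4 stayed called with each array scaled to its median. Well above background on all 6 arrays were 5 megakaryocyte, 4 macrophage and granulocyte, 1 mast cell, 2 lymphocyte and 0 fibroblast genes. Among them Itgam averaged 5.66 with Foxo3 siRNA and 6.06 with nontargeting siRNA, and Cd4 averaged 3.53 and 3.74. Macrophage and granulocyte sums were 67.2 to 73.2 with Foxo3 siRNA and 72.6 to 115.6 with nontargeting siRNA. The megakaryocyte sums were 39.9 to 71.6 and 38.8 to 58.7 in the same order. The part of these markers in the results on the KLF genes was not tested. By the brightest kept probe of each tested marker, 2 erythroblast genes rose, Tfrc (0.61) and Rhag (1.41). The other kept probes of Tfrc gave 0.36 and 0.35 and were not called. In the macrophage and granulocyte, mast cell, lymphocyte and fibroblast lists 0 were called by that probe. The other kept probe of the lymphocyte marker Cd79a was called lower (−1.02).

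The stretches below are the first 30 of the 60 bases of the probes on which the results turn: the 3 probes that were called, and the 3 Klf13 probes, which read different stretches. Positions follow the array maker's annotation (mouse mm9), and no base is singled out by capitals.
Klf3 (chr5:65221309-65221368, plus strand): cattgtcgatcatgaagccttgagagtaag
Klf6 (chr13:5869371-5869430, plus strand): tttaatactaagcagtccattctggtcagg
Klf9 (chr19:23240410-23240469, plus strand): gagcaaacaattttaacttcatgaatttgt
Klf13, RefSeq mRNA probe (chr7:71082854-71082913, minus strand): ggctgcgagaaagtttacgggaaatcttcg
Klf13, cDNA clone probe (chr7:71032482-71032541, plus strand): ttttagctttgaaagatacagcttccagaa
Klf13, Ensembl transcript probe (ends at 71036675 and 71069606 on chromosome 7, minus strand): tctcttctccgacaggtcaccttatatatc
None of these 6 probes shared 16 bases with a probe of another gene. The cDNA clone probe of Klf13 is written on the strand opposite to the Klf13 gene, so it may read another transcript. The ends of the Ensembl probe lie 32932 bases apart in the genome, far more than its 60 bases.

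Klf6, Klf9 and Klf3 were lower in cells that received Foxo3 siRNA, and no member was called higher. That is 3 of the 10 genes, or 3 of the 7 genes with a kept probe. Klf6 was at 52.2% of its nontargeting level, Klf9 at 53.8% and Klf3 at 64.4%. In RNA from whole cultures, fewer cells that express a gene and less of its RNA per cell cannot be told apart. Klf4, Klf10, Klf11 and Klf13 were measured and not called, and Klf2, Klf5 and Klf7 were not well above background on any array. Among all kept probes 25.3% were called, 13.0% lower and 12.3% higher, and 48.6% of the calls were thus higher. That last share was 77.4% with each array scaled to its median. The median log2 fold change was −0.12 over the 9 kept member probes, against −0.15 over all kept probes. Of these member probes 7, those of Klf3, Klf6 and Klf9 among them, were well above background on all 6 arrays. In a fit of the 17929 probes of the array that met this stricter filter, 41.1% were called. There 54.7% of the calls were higher, and the median log2 fold change was 0.0028.

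**Figure D1:**
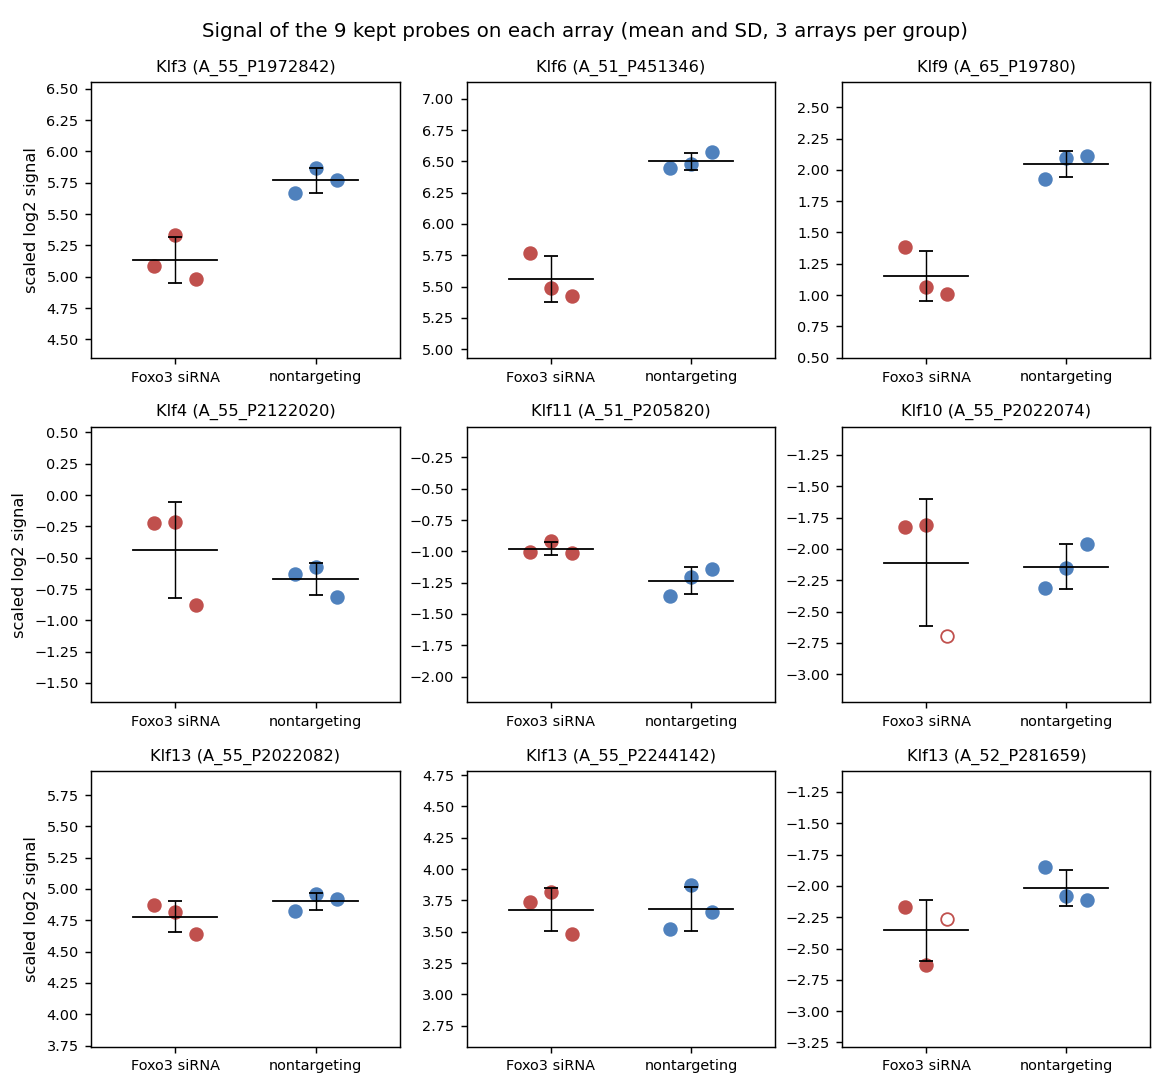
Scaled log2 signal of the 9 kept probes on each array; each panel spans the same number of log2 units, bars are the mean and SD of 3 arrays, and open points were not well above background. In the panels of Klf3, Klf6 and Klf9 every Foxo3 siRNA array lies under every nontargeting array.

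Klf6 encodes a widely expressed activator, and mouse embryos without it form blood poorly in the yolk sac. Its processed signal was 18900, 22911 and 16924 on the Foxo3 siRNA arrays, against 26695, 30390 and 29135 on the nontargeting arrays. After scaling, it read 5.77, 5.49 and 5.42 with Foxo3 siRNA, against 6.45, 6.48 and 6.57 with nontargeting siRNA. The groups did not overlap either before or after scaling. The log2 fold change was −0.94 (SE 0.131, 95% interval −1.25 to −0.62, n = 3 arrays per group, limma adjusted p = 0.00519). In the authors' deposited table the same probe had a log2 fold change of −0.91 and an adjusted p of 0.0481.

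Klf9 encodes a factor that is induced by thyroid and glucocorticoid hormones in several tissues. Its signal was 903.1, 1067 and 791.9 with Foxo3 siRNA, against 1166, 1456 and 1322 with nontargeting siRNA. The scaled values were 1.38, 1.07 and 1.01 with Foxo3 siRNA, against 1.93, 2.09 and 2.11 with nontargeting siRNA. Here too the groups lay apart on both scales. The log2 fold change of Klf9 was −0.89 (SE 0.141, 95% interval −1.23 to −0.56, limma adjusted p = 0.00749), and the authors' deposited table gives −0.89 with an adjusted p of 0.0571.

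Klf3 encodes the CtBP-binding repressor that acts beside Klf1 in erythroid cells. Its signal was 11739, 20559 and 12494 with Foxo3 siRNA, against 15579, 19885 and 16709 with nontargeting siRNA. Before scaling the groups thus overlapped, because Foxo3 siRNA replicate 2, the array with the highest 75th percentile, was the brightest of all. The scaled values were 5.08, 5.34 and 4.99 with Foxo3 siRNA, against 5.67, 5.87 and 5.77 with nontargeting siRNA, and did not overlap. The log2 fold change was −0.64 (SE 0.135, 95% interval −0.96 to −0.31, limma adjusted p = 0.0192). The authors' deposited table gives −0.62 with an adjusted p of 0.146.

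All 3 calls depended on the scaling, although the direction did not. With each array scaled to its median, the log2 fold changes were −0.63 for Klf6, −0.59 for Klf9 and −0.33 for Klf3, and none was called (adjusted p = 0.0953, 0.128 and 0.423), while the median of all kept probes moved to 0.15. Of all kept probes 19.2% were then called, 4.34% lower. On the 4 arrays of slide row 1, where 1 Foxo3 siRNA array meets all 3 nontargeting arrays, the values were −0.73, −0.66 and −0.69 (adjusted p = 0.106, 0.135 and 0.128), with the lone Foxo3 siRNA array assumed to vary like the other group. With slide row as a block, the adjusted p was 0.0499 for Klf6, 0.07 for Klf9 and 0.107 for Klf3, with 6.87% of all kept probes called and 2.75% lower. Slide row 2 held only Foxo3 siRNA arrays, so the block estimate sets Foxo3 siRNA replicate 1 alone against the nontargeting arrays. Its fold changes are those of row 1. Calls kept or lost under the block, here and in the lists below, cannot separate an effect of slide row from the loss of arrays. Without a filter on dim probes 55681 probes were tested, and the fold changes were those first reported above. The limma adjusted p values of Klf6, Klf9 and Klf3 were then 0.0776, 0.0963 and 0.171. Klf3 also lost its call without Foxo3 siRNA replicate 3 (adjusted p = 0.0665), nontargeting replicate 2 (0.0839) or nontargeting replicate 3 (0.0574).

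**Figure D2:**
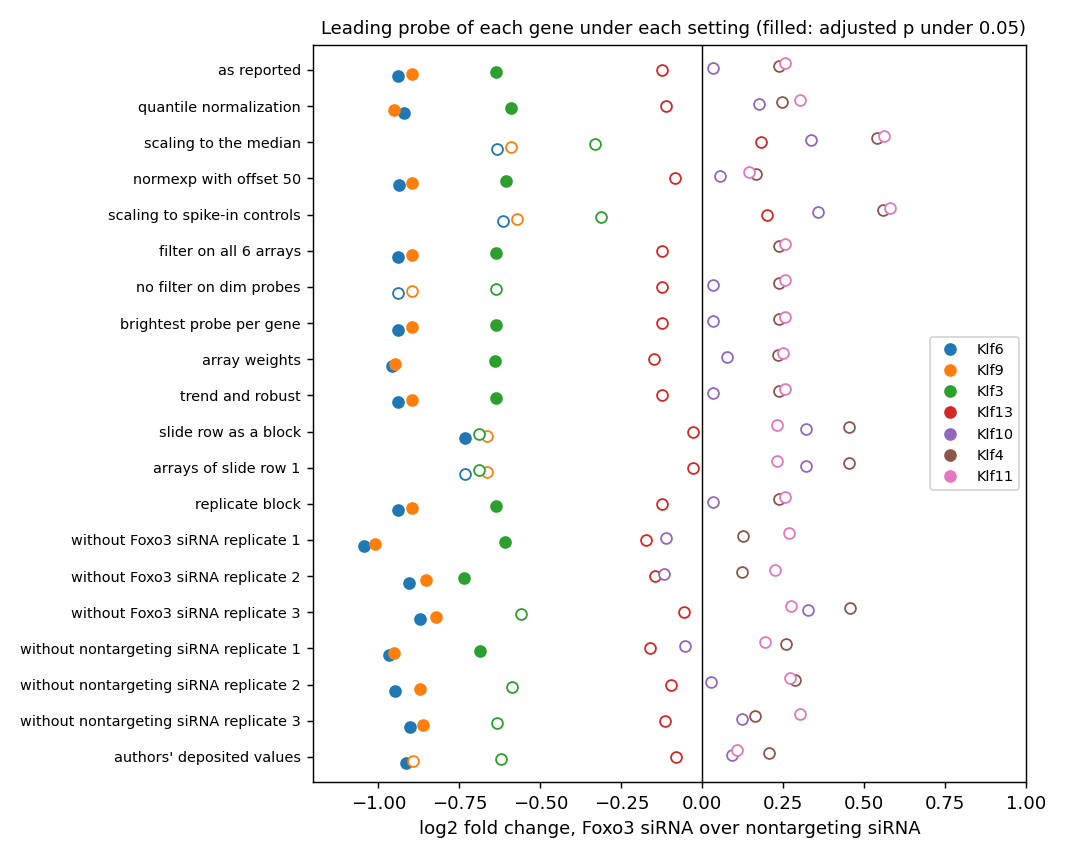
Log2 fold change of the leading probe of each measured KLF gene as reported and under 19 other settings (18 for Klf10, which the filter on all 6 arrays left out), filled where the adjusted p was under 0.05. Klf6, Klf9 and Klf3 lie left of 0 in every setting, and with scaling to the median all 3 points are open.

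**Figure D3:**
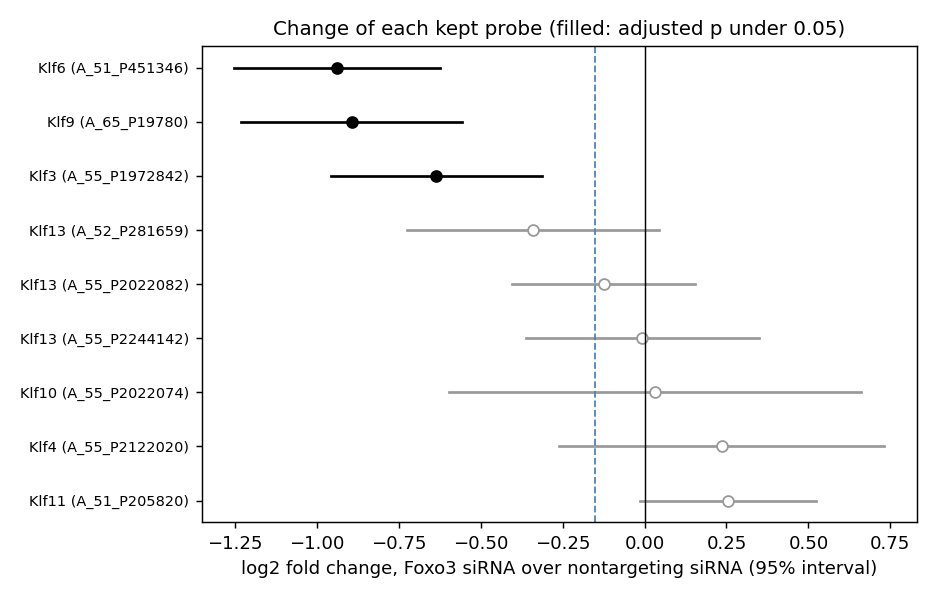
Log2 fold change with its 95% interval from limma for each kept probe, with the largest fall at the top; filled points were called, the solid line is 0 and the dashed line the median of all kept probes (−0.15). The intervals of Klf6, Klf9 and Klf3 end at −0.62, −0.56 and −0.31, under the dashed line.

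Differences between members on the same array do not depend on the scaling. Subtracting the scaled value of Klf11 from that of Klf6 on each array gave a mean of 6.54 ± 0.201 with Foxo3 siRNA and 7.73 ± 0.0632 with nontargeting siRNA (SD, n = 3 each), a difference of −1.19. For Klf9 against Klf11 the difference was −1.15 and for Klf3 against Klf11 it was −0.89. Set against Klf13, the differences were −0.81 for Klf6, −0.77 for Klf9 and −0.51 for Klf3. In each of the 12 pairs of Klf3, Klf6 or Klf9 with Klf4, Klf10, Klf11 or Klf13 the groups lay apart, with differences between −1.19 and −0.51. The exact permutation test gave p = 0.1 for each pair, the smallest value that 3 against 3 arrays allow (two-sided, 12 pairs). These pairs were formed after the calls had been seen, so the differences are a description and no separate evidence.

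Klf10 and Klf11, first described as early genes induced by TGF-beta, did not follow that pattern. Klf11 read −1.0, −0.92 and −1.02 with Foxo3 siRNA, against −1.36, −1.20 and −1.14 with nontargeting siRNA. All Foxo3 siRNA arrays lay above the nontargeting arrays, but the log2 fold change of 0.25 was not called (SE 0.112, 95% interval −0.014 to 0.52, limma adjusted p = 0.131). It was 0.56 under median scaling (adjusted p = 0.14), 0.58 under spike-in scaling and 0.11 in the authors' deposited table, and was not called in any of these. Klf10 read −1.82, −1.81 and −2.70 with Foxo3 siRNA, against −2.31, −2.15 and −1.96 with nontargeting siRNA. The low value was that of Foxo3 siRNA replicate 3, where the probe was not well above background, and the groups overlapped. The log2 fold change of Klf10 was 0.03 (95% interval −0.60 to 0.66, limma adjusted p = 0.932). It was 0.33 without Foxo3 siRNA replicate 3 (adjusted p = 0.208) and −0.11 without replicate 1, so its sign is not settled.

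Klf4, a factor of growth arrest and of pluripotent cells, gave a like picture. Its scaled values were −0.22, −0.21 and −0.88 with Foxo3 siRNA, against −0.63, −0.57 and −0.82 with nontargeting siRNA. Foxo3 siRNA replicates 1 and 2 lay above all nontargeting arrays and replicate 3 below them. The log2 fold change was 0.24 (SE 0.207, 95% interval −0.26 to 0.73, limma adjusted p = 0.40), or 0.46 without Foxo3 siRNA replicate 3 (adjusted p = 0.0896). It was 0.54 under median scaling (adjusted p = 0.174) and 0.56 under spike-in scaling, again not called.

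Klf13, which activates a chemokine gene in T cells, was read by 3 kept probes, and none was called. The RefSeq mRNA probe gave 4.87, 4.82 and 4.64 with Foxo3 siRNA, against 4.83, 4.96 and 4.92 with nontargeting siRNA. These groups overlapped, and the log2 fold change was −0.12 (95% interval −0.40 to 0.15, limma adjusted p = 0.428), so a fall as large as that of Klf6 lies outside the interval under this scaling. The cDNA clone probe gave −0.0065 (95% interval −0.36 to 0.35, adjusted p = 0.976). The Ensembl transcript probe gave −0.34 (95% interval −0.72 to 0.043, adjusted p = 0.15). It was dim, with 2 of 3 Foxo3 siRNA arrays well above background. It was kept through the nontargeting group, so the filter favoured a fall. Its scaled groups lay apart with Foxo3 siRNA lower. Before scaling they overlapped, at 77.0, 82.3 and 82.0 with Foxo3 siRNA, against 84.9, 80.4 and 70.7 with nontargeting siRNA. Median scaling, which moves all probes up by the same amount, gave 0.18 for the RefSeq probe and 0.30 for the cDNA clone probe. Of the 9 kept member probes, 5 had groups that did not overlap, 4 lower and 1 higher. The 4 include the Ensembl transcript probe of Klf13. Of all kept probes 49.6% had such groups (27.8% lower and 21.8% higher).

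Klf2, Klf5 and Klf7 were not well above background on any array, and no fold is given for them. Klf2 holds T cells quiescent and in mouse embryos takes part in embryonic globin expression, Klf5 acts in gut epithelium and Klf7 in neurons. The Klf2 signal was 5.32, 4.64 and 32.1 with Foxo3 siRNA, against 5.23, 5.19 and 5.25 with nontargeting siRNA. The value of 32.1 belongs to Foxo3 siRNA replicate 3, where the lowest signal of any probe was 24.1, against 3.48 to 4.29 on the other arrays. Klf5 ranged from 4.90 to 41.6 with Foxo3 siRNA and from 5.31 to 24.5 with nontargeting siRNA, and Klf7 from 6.75 to 28.7 and from 4.87 to 18.4 in the same order. In both genes the highest value was again that of Foxo3 siRNA replicate 3. The Klf7 probe shared 16 bases with 9 probes of other genes.

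**Figure D4:**
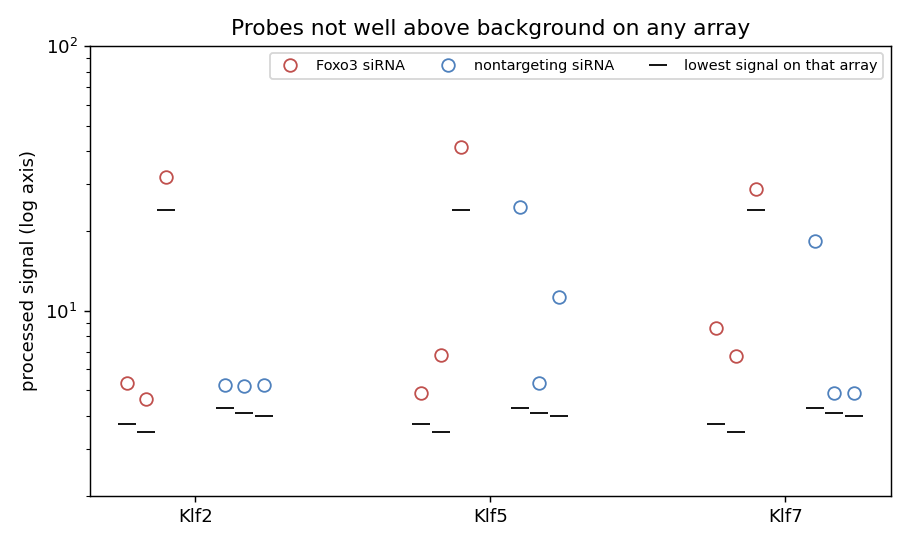
Processed signal on a log axis of the 3 members below background, with the lowest signal of each array as a dash. The single high point of each gene among the Foxo3 siRNA arrays sits on the array whose own lowest signal was 24.1.

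Promoter sequence was looked at for Klf9, Klf6 and Klf3, the 3 members called lower. RefSeq windows on build GRCm38.p6 were found for 8 of the 10 genes, all but Klf5 and Klf10, and the 250 bases before the start are shown 5′ to 3′ on the gene's strand. Capitals mark matches to any of the motifs searched.
Klf9 (chr19:23140976-23141225): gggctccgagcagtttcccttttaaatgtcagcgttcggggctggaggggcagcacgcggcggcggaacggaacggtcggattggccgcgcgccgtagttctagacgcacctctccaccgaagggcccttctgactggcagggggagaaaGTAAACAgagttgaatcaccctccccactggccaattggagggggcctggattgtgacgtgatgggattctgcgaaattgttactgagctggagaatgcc
Klf6 (chr13:5861239-5861488): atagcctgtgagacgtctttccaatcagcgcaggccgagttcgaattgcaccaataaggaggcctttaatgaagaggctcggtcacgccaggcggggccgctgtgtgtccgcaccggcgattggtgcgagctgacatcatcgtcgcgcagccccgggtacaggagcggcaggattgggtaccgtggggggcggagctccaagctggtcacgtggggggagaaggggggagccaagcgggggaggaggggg
Klf3 (chr5:64803271-64803520): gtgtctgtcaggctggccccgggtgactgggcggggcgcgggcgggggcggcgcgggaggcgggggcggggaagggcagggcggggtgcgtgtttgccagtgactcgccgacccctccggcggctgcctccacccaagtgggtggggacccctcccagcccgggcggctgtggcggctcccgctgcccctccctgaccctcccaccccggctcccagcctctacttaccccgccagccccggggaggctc
The FOXO motif GTAAACA, searched on both strands, was found in 1 of the 8 windows, that of Klf9, where it begins 100 bases before the start. Of all 32817 windows of that length, 3.16% held it. The GATA motifs AGATAA and TGATAA were in 0 of the 8 windows and in 16.6% of all windows. The longer pattern CCACNCCC, searched for the CACCC motif, was in the windows of Klf7 and Klf13 (15.9% of all). The MEF2 motif was in that of Klf2, 118 bases before the start (3.20% of all). The bare letters CACCC were not counted, and they do occur in the Klf3 and Klf9 windows shown. The CRE motif TGACGTCA was in none of the 8 (1.55% of all). The motifs do not overlap one another in these windows. GC content was 78.4% for Klf3, 64.8% for Klf6 and 59.6% for Klf9, against a median of 52.4%. A match is a description of the letters and shows no binding.

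Other genes of the family and around it were taken from 6 lists and described by the brightest kept probe of each gene. The lists were chosen with results of these data known, and their medians stand beside −0.15 for all kept probes. Their counts of falls and rises stand beside 13.0% called lower and 12.3% called higher among all kept probes. Among the other SP and KLF genes, 9 of 16 had a kept probe, 2 fell and 0 rose. Sp2, a broadly expressed SP factor, fell by 0.42 (limma adjusted p = 0.0371) and its other kept probe gave −0.76. The other was Klf17 (−1.15, adjusted p = 0.0206), which cleared the background in 2 of 3 Foxo3 siRNA samples and was kept through the nontargeting group, so the filter favoured a fall and its size is approximate. With slide row as a block neither was called (Klf17 −0.99, adjusted p = 0.176; Sp2 −0.29, adjusted p = 0.262), and under median scaling Sp2 gave −0.12 (adjusted p = 0.816). Klf1 itself averaged 5.92 ± 0.155 with Foxo3 siRNA and 5.77 ± 0.177 with nontargeting siRNA (SD, n = 3 each; adjusted p = 0.443). Klf8, a gene that KLF3 represses in mouse erythroid cells, had no kept probe. The median of the list was −0.21, or 0.098 with median scaling.

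Of the cofactors and ubiquitin ligases of KLF proteins, 13 of 14 were tested, 2 rose and 1 fell (median −0.093, or 0.21 with median scaling). Hdac1, a histone deacetylase of the SIN3A complex, rose by 0.56 (limma adjusted p = 0.0176) and its other probes gave 0.50 and 0.59. Wwp1, a ligase that targets KLF2 and KLF5, rose by 0.76 (adjusted p = 0.0232). With slide row as a block neither was called (Hdac1 0.44, adjusted p = 0.149; Wwp1 0.67, adjusted p = 0.179), nor was Fbxw7 (−0.55, adjusted p = 0.144). Fbxw7, the substrate receptor of another such ligase, fell by 0.54 (adjusted p = 0.0262), but its value was −0.23 under median scaling (adjusted p = 0.603); its other probe gave −0.87. The partners of KLF3 and of the TGF-beta-inducible members were not called: Ctbp1 gave 0.13, Ctbp2 0.43 (adjusted p = 0.0707) and Sin3a 0.12.

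The route from ERK5 through MEF2 factors is known to raise Klf2 and Klf4 in other cells, and 2 of its 8 tested genes fell and 1 rose. Map3k3, a kinase at the top of the route, fell by 1.29 (limma adjusted p = 0.00146) and Mef2c by 0.76 (adjusted p = 0.0219), each with 2 of 3 Foxo3 siRNA arrays well above background. Both were kept through the nontargeting group, so the filter favoured a fall, the sizes are approximate and the count of 2 is no support for the list. Mapk7, which encodes ERK5, rose by 0.45 (adjusted p = 0.0404). With slide row as a block Map3k3 stayed called (−1.27, adjusted p = 0.0214), while Mef2c and Mapk7 did not. The median of the list was −0.065, or 0.24 with median scaling.

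In the TGF-beta list, which holds the known inducers of Klf10 and Klf11, 11 of 15 genes were tested, 2 rose and 2 fell. Tgif1, a repressor of the pathway, fell by 2.34 (limma adjusted p = 0.002) but 1 of the 3 Foxo3 siRNA arrays was not well above background. It was kept through the nontargeting group, so its size is approximate and the filter favoured a fall. Smad4, the shared SMAD partner, fell by 0.88 (adjusted p = 0.0085; its other probe gave −0.80), and Skil, an inhibitor of SMADs, rose by 0.47 (adjusted p = 0.0297; its other probe gave −0.12). Smad4 was not called under median scaling (−0.58, adjusted p = 0.138), and with slide row as a block neither Smad4 (−0.73, adjusted p = 0.0921) nor Skil (0.55, adjusted p = 0.112) was. Smad3, Smad7 and Id2 were below background throughout. The list's median was −0.29, or 0.010 with median scaling.

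Klf4, Klf6 and Klf10 often respond early to growth factors, as do the immediate early genes, of which 14 of 19 were tested, 3 fell and 1 rose. Egr1, a zinc finger factor induced by growth signals, averaged 3.28 ± 0.341 with Foxo3 siRNA and 5.16 ± 0.0556 with nontargeting siRNA (SD, n = 3 each; log2 fold change −1.88, limma adjusted p = 0.00194). Zfp36, which destabilises mRNAs, fell by 0.95 (adjusted p = 0.00869), Btg2, an inhibitor of proliferation, fell by 0.57 (adjusted p = 0.015), and Ier3 rose by 1.66 (adjusted p = 0.00239). Under median scaling Egr1 and Ier3 kept their calls (−1.58 and 1.97), and Zfp36 and Btg2 did not, and the same held with slide row as a block. Ier5 was not called by its brightest probe, but its other kept probe was (0.86). The list's median was −0.31, or −0.0037 with median scaling.

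A short list of genes tied to KLF2, KLF3 or KLF4 in mouse work had 6 of 10 members tested, 3 of which fell. Among all kept probes 13.0% were called lower. Lgals3, the galectin-3 gene that KLF3 silences in mouse tissues, averaged 0.39 ± 0.166 with Foxo3 siRNA and 3.62 ± 0.474 with nontargeting siRNA (SD, n = 3 each; log2 fold change −3.23, limma adjusted p = 0.00101). Hbb-y, the embryonic beta-like globin that KLF1 and KLF2 activate in mouse embryos, fell by 1.41 (adjusted p = 0.016; its other probe gave −1.31), and Hbb-bh1 gave 0.20 (adjusted p = 0.631). The globin probes may bind one another's transcripts, so these values are uncertain. Cdkn1a, the p21 cell cycle inhibitor that KLF4 and KLF6 activate, fell by 0.81 (adjusted p = 0.00857), and its other 2 kept probes fell too. It was not called under median scaling (−0.50, adjusted p = 0.201) or with slide row as a block (−0.70, adjusted p = 0.0904), and under the block Hbb-y was not called either (−1.26, adjusted p = 0.146). S1pr1 and Thbd, targets of KLF2 in T cells or vessel lining, were below background throughout, as was Klf2 itself. The median of the 6 was −0.43, or −0.12 with median scaling.

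**Figure D5:**
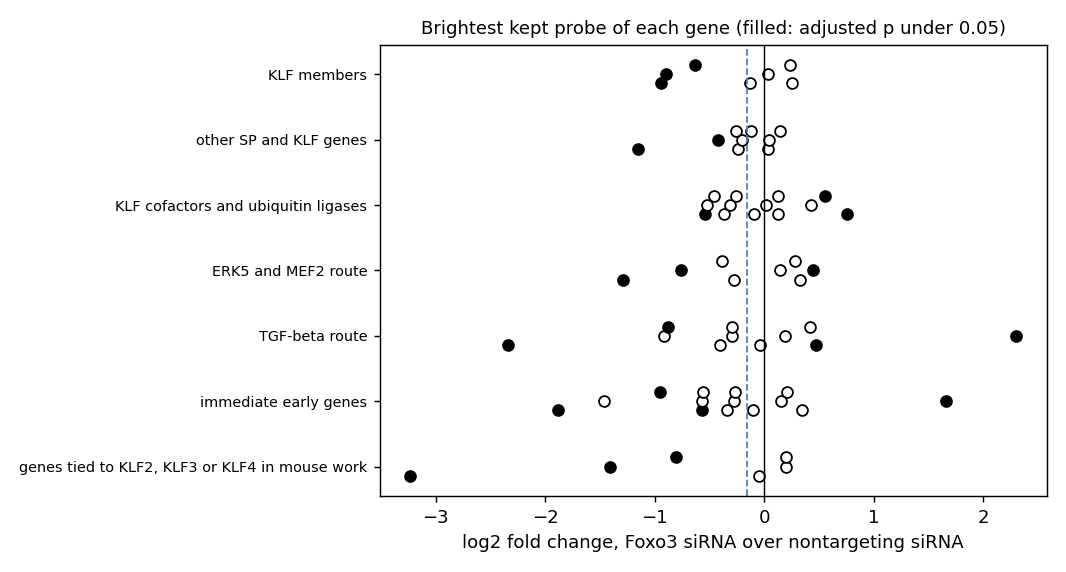
Log2 fold change of the brightest kept probe of each gene in the KLF set and 6 lists around it, filled where called; the dashed line is the median of all kept probes (−0.15). Each list spreads to both sides of 0, and the KLF falls of −0.94, −0.89 and −0.64 lie within the range of each other list except the cofactors and ligases, whose lowest value is −0.54.

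The genes whose values ran most like those of Klf6 and Klf9, the members with the largest called changes, were found by Pearson correlation of scaled values over the 6 arrays, among 8936 named genes well above background on all arrays. For Klf6 these were Ctse, Serinc3, Ctdsp2 and Paip2, and for Klf9 they were Epb41, Ctdsp2, Paip2 and Zfp629, all at correlations of 0.998 or 0.999. The 6 arrays form 2 groups, so such values mostly restate a common difference between the groups: 676 of the genes exceeded 0.95 for Klf6 and 661 for Klf9. All of these examples were lower with Foxo3 siRNA, from Ctse at −2.42 to Zfp629 at −0.58.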

How the data were processed

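Cy3-labelled RNA from 6 samples, each from 0.1 µg of RNA, were measured on 1-colour Agilent mouse arrays. Per the file headers, the spot intensities are output of Agilent's Feature Extraction software, version 10.7.3.1, with background subtraction, detrending and surrogate values for spots not above background. The deposited series table repeats these intensities and adds, for every spot, an adjusted and an unadjusted p-value and a log2 fold change by the authors, made with limma per the submitters' processing notes; its normalization is not given in the sources used here.

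Control spots and outlier spots were left out, log2 intensities were centred on the 75th percentile of each array, and spots of 1 probe were averaged. The 27016 probes well above background on all 3 arrays of a group were fitted with limma 3.58.1 (R 4.3.3; two-sided, no covariates, Benjamini-Hochberg), and the fit was tested on simulated data. Array number limits the precision. Surrogate values filled 16.7% to 50.2% of non-control spots, and 0 were saturated. Gene names of list members come from RefSeq (GRCm38.p6). Named genes are all members, the called members of each list (at most 4 by adjusted p) and the correlates described; others were named after their values were seen. Some list members are not reported here by name. The members and lists were chosen with earlier results of these data known. Alternatives covered scaling, background correction, filter, test, slide row, replicate block and left-out arrays. Scaling to spike-in controls was added after seeing the data.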

Additional observations from a re-analysis of the deposited data

How the results depend on the processing

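Klf6, Klf9 and Klf3 were lower with Foxo3 siRNA under all 19 alternatives run, with log2 fold changes of −1.04 to −0.62, −1.01 to −0.57 and −0.74 to −0.31. Their calls were lost in 4, 6 and 9 of these. The slide row block and the arrays of row 1 gave the same fold changes, both resting on Foxo3 siRNA replicate 1. The number of members called lower was 0 with scaling to the median, to spike-in controls (−0.62, −0.57 and −0.31), without the filter on dim probes and on the arrays of slide row 1; it was 1, Klf6, with slide row as a block and in the authors' deposited table. Leaving out 1 array gave 2 to 3. No member was called higher in any of the 19. The probes called in all were 1160 with spike-in scaling, 634 without the filter, 1857 with slide row as a block, 774 on row 1, 1349 spots in the authors' deposited table and 2696 to 5886 with 1 array left out, against 6833. The share of higher calls was 77.4% with median scaling, 78.0% with spike-in scaling and 66.7% without the filter, against 48.6%.

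The cDNA clone probe of Klf13 changed sign with median scaling (0.30), spike-in scaling (0.32), slide row as a block (0.051), on row 1 (0.051) and without Foxo3 siRNA replicate 3 or nontargeting replicate 2 (−0.087 to 0.091 over left-out arrays). The RefSeq probe of Klf13 did so with median (0.18) and spike-in scaling (0.20), and Klf10 with left-out arrays (−0.12 to 0.33). None of these was called, and the cause was not tested. Arrays with the same replicate number did not deviate together (correlations 0.16, −0.31 and 0.11), where different numbers gave −0.37 to 0.29. No pairing by number was seen, but so few arrays cannot show that there was none. With the replicate block 3 members were called lower and 6703 probes in all (Klf6 −0.94, adjusted p = 0.0226).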
